A study of Mus musculus with 11 samples.

Results

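The 9 genes Cs, Idh3a, Idh3b, Idh3g, Ogdh, Dlst, Suclg1, Fh1 and Mdh2 encode matrix enzymes of the citric acid cycle and were taken by name from a table of 24421 genes. All 9 were in the table and all 9 passed the filter on low counts, with between 1126 (Fh1) and 14334 (Ogdh) counts in any library. RNA was sequenced from splenic natural killer (NK) cells that carry Ly49H, an activating receptor for a protein of mouse cytomegalovirus (MCMV), in mixed bone marrow chimeras of C57BL/6 mice. LDHA-deficient cells (KO, marked by CD45.2) and wild-type cells (WT, marked by CD45.1) gave 11 libraries in 4 groups by title, namely KO D2 (3), WT D2 (3), KO D0 (3) and WT D0 (2). Every group carries MCMV infection as its treatment and day 2 as its time after infection. This includes the D0 groups, whose infection status is therefore unclear, and D2 and D0 stand here for what the titles say. Libraries titled WT have a genotype label that covers WT and KO alike, and were grouped by their titles. The labels call each sample an individual mouse, and the sources used here do not say how Ldha was deleted, in which cells, or the age of the mice.

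The citric acid cycle oxidises acetyl groups in the mitochondrial matrix and passes the electrons to NADH and reduced flavin, which feed the respiratory chain. Pyruvate that is not turned into lactate by lactate dehydrogenase can enter the cycle as acetyl-CoA, so the cycle and the enzyme that KO cells are deficient in draw on the same substrate. Activated lymphocytes also draw cycle intermediates off for biosynthesis, and NK cells can export citrate from the matrix in exchange for malate.

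Total counts per library were 21902080 to 24371249 in KO D2, 23361983 to 27702679 in WT D2, 19452460 to 24754212 in KO D0 and 25510842 to 27992092 in WT D0. Ldha stood at 101 to 115 CPM (counts scaled to a common library total) in KO D2 libraries against 2753 to 3101 CPM in WT D2 libraries, and at 91.1 to 104 CPM in KO D0 libraries against 563 and 656 CPM in WT D0 libraries. The summed level of 8 NK cell markers was 36923 to 45376 CPM in KO D2 and 37398 to 43353 CPM in WT D2. It was 6794 to 8126 CPM in KO D0 and 8836 to 9087 CPM in WT D0. Gzmb was the most abundant over all libraries, with a mean of 32012 CPM in KO D2 and 31255 CPM in WT D2. Its mean was 911 CPM in KO D0 and 1147 CPM in WT D0. Most of the difference in the sum between the days was thus that of Gzmb, and the sum is not read as NK cell content. No marker of the NK, T, B, monocyte, neutrophil, dendritic, erythroid or platelet lists was at 0 in a whole group. In bulk samples, fewer cells of a type and less RNA per cell cannot be told apart.

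To show what lies upstream of these genes, 3 windows of 250 bases that end just before a RefSeq start site (GRCm38.p6, the build of the deposited counts) are printed. They belong to Cs and Fh1, which were higher at D2, and to Ogdh, which did not pass the test. These are windows that hold no annotated exon. Capitals mark GGGCGG on either strand (CCGCCC when read on the printed strand), the core of the site bound by Sp1-type factors. Cs lies on the plus strand, and its window is chr10:128337477-128337726. Fh1 lies on the minus strand, and its window is chr1:175625636-175625885. The first start site of Ogdh lies on the plus strand, with its window at chr11:6291347-6291596.
Cs: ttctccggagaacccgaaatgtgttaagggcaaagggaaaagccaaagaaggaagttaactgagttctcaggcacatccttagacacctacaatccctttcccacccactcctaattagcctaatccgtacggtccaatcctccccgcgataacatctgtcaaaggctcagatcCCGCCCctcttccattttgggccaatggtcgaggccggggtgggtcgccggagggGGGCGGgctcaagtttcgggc
Fh1: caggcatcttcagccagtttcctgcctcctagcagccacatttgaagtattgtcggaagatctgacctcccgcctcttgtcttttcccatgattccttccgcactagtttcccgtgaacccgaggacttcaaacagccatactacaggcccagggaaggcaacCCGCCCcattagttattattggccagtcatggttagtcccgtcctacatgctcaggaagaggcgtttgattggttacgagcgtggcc
Ogdh: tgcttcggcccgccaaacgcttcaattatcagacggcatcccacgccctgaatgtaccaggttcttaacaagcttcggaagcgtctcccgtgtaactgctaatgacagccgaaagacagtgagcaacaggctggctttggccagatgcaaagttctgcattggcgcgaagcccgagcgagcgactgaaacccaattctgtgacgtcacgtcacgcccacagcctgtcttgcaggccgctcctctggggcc
For the counts, every window of 250 bases was used, with or without annotated exons. Of the 8 members with a RefSeq promoter entry, 5 held GGGCGG (Cs, Ogdh from a later start site, Dlst, Fh1 and Mdh2), as did 45.7% of 18281 genes. The windows with this motif held annotated exon bases for Ogdh (26 and 185), Dlst (76) and Mdh2 (169), and none for Cs and Fh1. CACGTG, the E-box read by Myc and related factors, was in 1 member window set, that of Ogdh, and in 7.82% of genes. CGCATGCG, the core of the NRF1 site, was in that of Ogdh and in 2.33% of genes. CCGGAAG, an ETS-type site, was in that of Idh3g and in 10.1% of genes, and TCAAGGTCA, an ERR-type site, was in no member window and in 0.367% of genes. The Ogdh windows with CACGTG or CGCATGCG held 185 to 206 annotated exon bases, and the Idh3g window with CCGGAAG held 120. Each motif was searched on both strands and at every listed start site of a gene, and none of the 5 motifs is part of another.

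The first question was how D2 cells differed from D0 cells. Of the 9 genes, 6 were higher at D2 than at D0 in KO cells and 6 were higher in WT cells, and in both genotypes these were Cs, Idh3a, Dlst, Suclg1, Fh1 and Mdh2 (edgeR quasi-likelihood test, Benjamini-Hochberg adjusted p under 0.05 over 13711 genes). None was lower in either genotype. Among all genes tested, 27.0% were higher, 34.5% lower and 61.4% called in either direction in KO, and 27.5% were higher, 26.0% lower and 53.5% called in either direction in WT. The median log2 fold change of the 9 genes was 0.73 in KO and 0.59 in WT, beside medians of -0.20 and -0.07 over all genes tested. The D2 libraries lay above all D0 libraries of the same genotype for 8 of 9 genes in KO and 8 of 9 in WT, with Idh3b the exception in both. Over all genes tested the D2 libraries lay above for 29.2% and below for 37.8% in KO (67.0% apart in either direction), and above for 33.6% and below for 34.9% in WT (68.5%). Summed over the 9 genes, the level was 2444, 2463 and 2620 CPM in the KO D2 libraries against 1342, 1486 and 1642 CPM in the KO D0 libraries, and 2499, 2304 and 2411 CPM in the WT D2 libraries against 1349 and 1549 CPM in the WT D0 libraries. CPM are shares of a library, so a change in the RNA held by a whole cell is not seen.

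**Figure D1:**
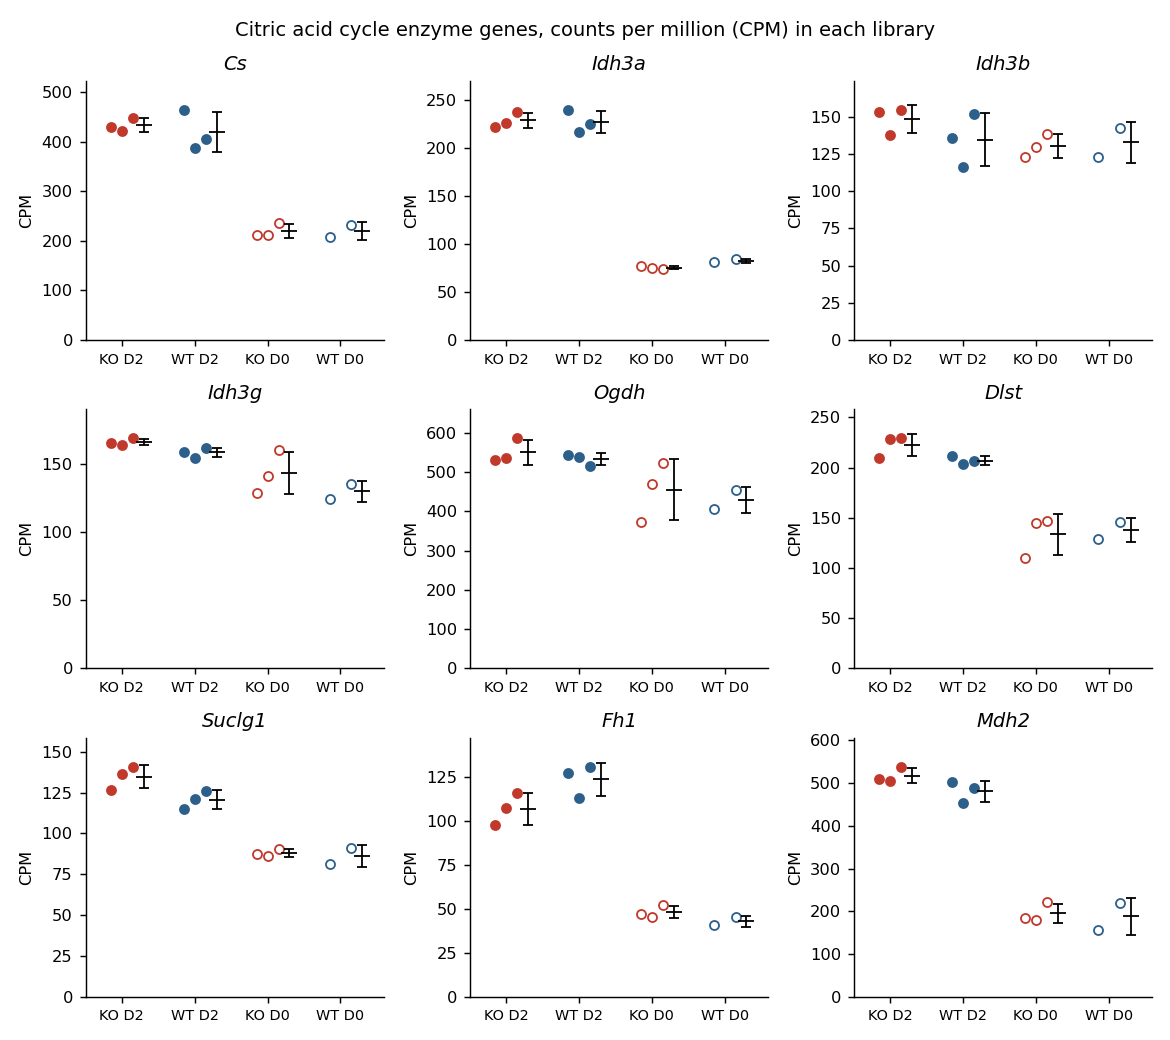
CPM (vertical axes, from 0) of the 9 citric acid cycle genes in each library of KO D2, WT D2, KO D0 and WT D0 (horizontal axes, replicates in number order), with bars for the mean and SD of each group. The D2 and D0 libraries are well apart for Cs, Idh3a, Fh1 and Mdh2 and overlap for Idh3b, and within a day the KO and WT libraries lie close together for every gene.

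Cs (Entrez 12974, chr10:128337727-128362482) encodes citrate synthase, which joins acetyl-CoA to oxaloacetate at the entry of the cycle. Its level was 431, 422 and 448 CPM in KO D2 libraries against 213, 212 and 236 CPM in KO D0 libraries, and 465, 387 and 406 CPM in WT D2 libraries against 208 and 232 CPM in WT D0 libraries. All 6 D2 libraries were above all 5 D0 libraries. The log2 fold change of D2 against D0 was 0.98 in KO (SE 0.11, edgeR adjusted p = 5.2e-06) and 0.93 in WT (SE 0.12, edgeR adjusted p = 3.2e-05), close to a doubling. Csl, a near copy of Cs by name, held at most 3 counts in any library.

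The NAD-dependent isocitrate dehydrogenase turns isocitrate into 2-oxoglutarate and is built from a catalytic subunit, encoded by Idh3a (Entrez 67834, chr9:54586511-54604662), and regulatory subunits, encoded by Idh3b (Entrez 170718, chr2:130279309-130284451) and Idh3g (Entrez 15929, chrX:73778963-73786897). Idh3a stood at 222, 227 and 238 CPM in KO D2 libraries against 76.9, 75.2 and 73.6 CPM in KO D0 libraries, and at 239.8, 216 and 225 CPM in WT D2 libraries against 80.8 and 84.1 CPM in WT D0 libraries. It had the largest rise of the 9 genes in KO, 3.04-fold (95% interval 2.63 to 3.51, edgeR adjusted p = 4.0e-08), and rose 2.75-fold in WT (2.33 to 3.25, edgeR adjusted p = 3.1e-07). The 6 D2 libraries and the 5 D0 libraries formed separate bands that differed by more than the spread within either.

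The regulatory subunits had smaller fold changes, and neither passed the test. Idh3b stood at 153, 138 and 155 CPM in KO D2 libraries against 123, 130.1 and 139 CPM in KO D0 libraries, and at 136, 117 and 152 CPM in WT D2 libraries against 123 and 143 CPM in WT D0 libraries. The days overlapped in both genotypes, and the log2 fold changes of 0.19 in KO (95% interval -0.08 to 0.45, edgeR adjusted p = 0.20) and 0.02 in WT (-0.27 to 0.31, edgeR adjusted p = 0.91) did not pass the test. Idh3b shares 5 exon bases with Nop56 on the opposite strand, and whether counting used strand is not given in the sources used here. Idh3g stood at 165, 164 and 169 CPM in KO D2 libraries against 129, 141 and 159.6 CPM in KO D0 libraries, and at 159, 154 and 161 CPM in WT D2 libraries against 124 and 135 CPM in WT D0 libraries. Each D2 group lay above its D0 group, but the log2 fold changes of 0.21 in KO (SE 0.10, edgeR adjusted p = 0.093) and 0.29 in WT (SE 0.12, edgeR adjusted p = 0.055) missed the threshold.

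The 2-oxoglutarate dehydrogenase complex oxidises 2-oxoglutarate to succinyl-CoA with a dehydrogenase subunit, encoded by Ogdh (Entrez 18293, chr11:6291597-6359094), and a succinyl transferase core, encoded by Dlst (Entrez 78920, chr12:85110822-85134091). Ogdh stood at 530.2, 535 and 587 CPM in KO D2 libraries against 372, 471 and 524 CPM in KO D0 libraries, and at 545, 540.1 and 516 CPM in WT D2 libraries against 405 and 453 CPM in WT D0 libraries. Within each genotype the D2 and D0 libraries did not overlap, yet the log2 fold changes of 0.27 in KO (SE 0.13, edgeR adjusted p = 0.075) and 0.31 in WT (SE 0.14, edgeR adjusted p = 0.078) missed the threshold. Dlst stood at 209.9, 228 and 229 CPM in KO D2 libraries against 110.2, 144 and 147 CPM in KO D0 libraries, and at 212, 203 and 206 CPM in WT D2 libraries against 129 and 146 CPM in WT D0 libraries. Its log2 fold change was 0.73 in KO (SE 0.12, edgeR adjusted p = 0.00018) and 0.59 in WT (SE 0.14, edgeR adjusted p = 0.0028).

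Suclg1 (Entrez 56451, chr6:73248505-73276907) encodes the alpha subunit of succinyl-CoA ligase, which makes GTP or ATP while releasing succinate. It stood at 127, 136 and 141 CPM in KO D2 libraries against 87.5, 86.2 and 90.5 CPM in KO D0 libraries, and at 115, 121 and 126 CPM in WT D2 libraries against 81.4 and 91.2 CPM in WT D0 libraries. The D2 libraries were above the D0 libraries in both genotypes, by 0.61 on the log2 scale in KO (SE 0.10, edgeR adjusted p = 0.00016) and 0.49 in WT (SE 0.11, edgeR adjusted p = 0.0029).

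The last steps of the cycle had large rises. Fh1 (Entrez 14194, chr1:175601378-175625635) encodes fumarate hydratase, which makes malate from fumarate. It stood at 97.5, 107 and 115 CPM in KO D2 libraries against 46.9, 45.4 and 52.0 CPM in KO D0 libraries, and at 127, 113 and 131 CPM in WT D2 libraries against 40.8 and 45.2 CPM in WT D0 libraries. It rose 2.22-fold in KO (95% interval 1.86 to 2.64, edgeR adjusted p = 2.6e-06) and 2.87-fold in WT (2.34 to 3.52, edgeR adjusted p = 1.2e-06). Mdh2 (Entrez 17448, chr5:135778649-135790386) encodes the mitochondrial malate dehydrogenase, which closes the cycle by remaking oxaloacetate. It stood at 509, 506 and 538 CPM in KO D2 libraries against 184, 180.3 and 221 CPM in KO D0 libraries, and at 501, 453 and 487 CPM in WT D2 libraries against 157 and 219 CPM in WT D0 libraries. The lowest D2 library held more than the highest D0 library by a wide margin, and the rise was 2.65-fold in KO (2.17 to 3.24, edgeR adjusted p = 1.6e-06) and 2.55-fold in WT (2.02 to 3.21, edgeR adjusted p = 9.6e-06).

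The calls for Dlst and Suclg1 in WT rested on WT D0 replicate 2, since without it their log2 fold changes were 0.44 (edgeR adjusted p = 0.059) and 0.34 (adjusted p = 0.070), with 1 library left in that group. In KO, Idh3g and Ogdh passed the threshold with RLE scaling (0.32 and 0.38), in DESeq2 (0.32 and 0.38) or with only the compared groups in the fit (0.28 and 0.34), which made 8 of 9 genes higher in each, beside 29.4%, 29.9% and 29.3% of all genes. In WT, 6 of 9 were higher with RLE scaling and in DESeq2, beside 27.5% and 28.3% of all genes. With a curve on GC content taken off each library, described with the comparison of the genotypes, Idh3g stood at -0.017 and Ogdh at 0.059 in KO. The summed level of 4 monocyte and macrophage markers moved with the day, at 11.6 to 18.5 CPM in KO D2 against 23.0 to 45.2 CPM in KO D0, and 12.3 to 17.2 CPM in WT D2 against 40.5 to 60.9 CPM in WT D0. The sum of 3 neutrophil markers did so too, at 0.181 to 0.307 CPM in KO D2 against 0.599 to 5.76 CPM in KO D0, and 0.181 to 1.59 CPM in WT D2 against 2.91 to 4.62 CPM in WT D0. The part of such cells in the rise of the cycle genes was not tested.

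**Figure D2:**
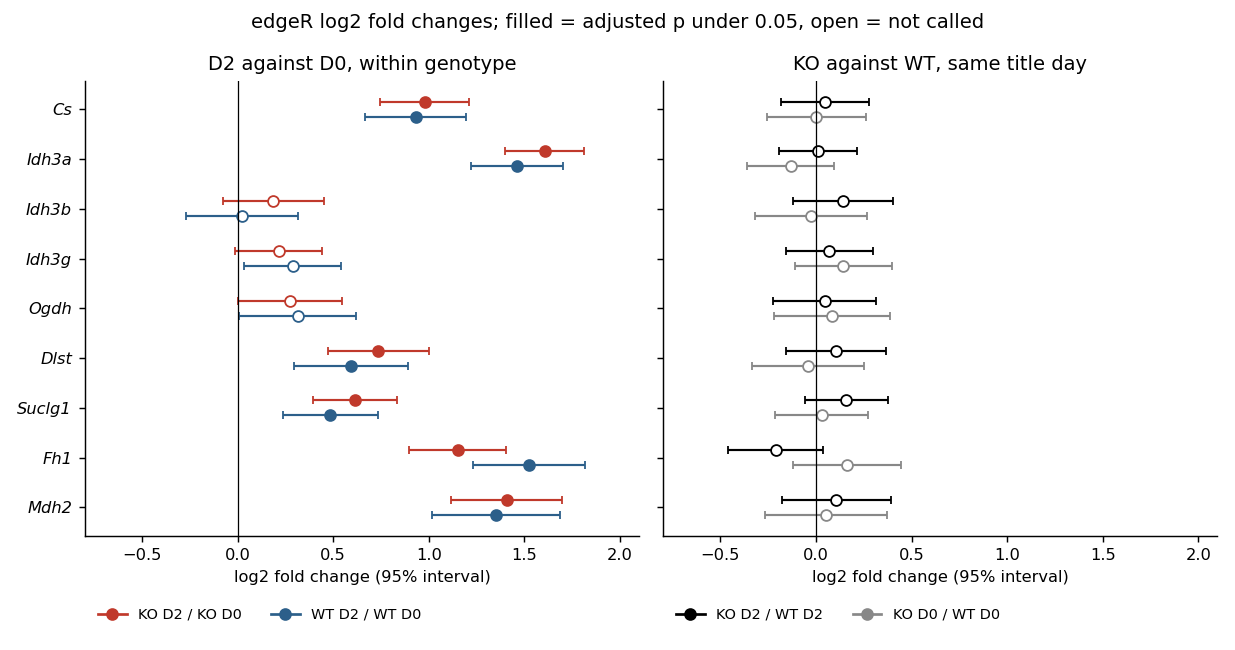
edgeR log2 fold changes (horizontal axes) with 95% intervals for the 9 genes, D2 against D0 within each genotype on the left and KO against WT under each title day on the right, filled where the adjusted p was under 0.05. Cs, Idh3a, Dlst, Suclg1, Fh1 and Mdh2 are filled on the left in both genotypes, and every interval on the right holds 0.

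Because the fold changes of subunits of 1 enzyme were unlike, their ratios were taken in each library from CPM per kb of transcript. Since the levels prompted this choice, the ratios are given for the days as a description, with no test. The Idh3a to Idh3b ratio was 0.907, 1.03 and 0.962 in KO D2 libraries against 0.392, 0.362 and 0.332 in KO D0 libraries, and 1.10, 1.16 and 0.928 in WT D2 libraries against 0.411 and 0.369 in WT D0 libraries. Per kb, the transcript of the catalytic subunit was thus the scarcer at D0 and about level with Idh3b at D2. This level rests on the lengths taken, 2.58 kb for Idh3a and 1.616 kb for Idh3b, and other transcripts were not tried. The change of a ratio between the days does not depend on the lengths. Averaged over the genotypes the ratio was 2.70 times as high at D2 as at D0. The Idh3a to Idh3g ratio was 2.43 times as high at D2. That of the regulatory subunits, Idh3b to Idh3g, was 0.900 times as high and its days overlapped.

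The Dlst to Ogdh ratio was 0.591, 0.636 and 0.584 in KO D2 libraries against 0.443, 0.457 and 0.418 in KO D0 libraries, and 0.580, 0.563 and 0.597 in WT D2 libraries against 0.476 and 0.481 in WT D0 libraries. The days did not overlap, and the ratio was 1.29 times as high at D2. Between KO D2 and WT D2 none of the 4 ratios passed an exact permutation test (two-sided p of 0.3, 0.3, 0.7 and 0.4), and 3 libraries against 3 cannot go below 0.10. The log2 differences of KO D2 from WT D2 were -0.14 for Idh3a to Idh3b, -0.06 for Idh3a to Idh3g, 0.08 for Idh3b to Idh3g and 0.06 for Dlst to Ogdh.

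**Figure D3:**
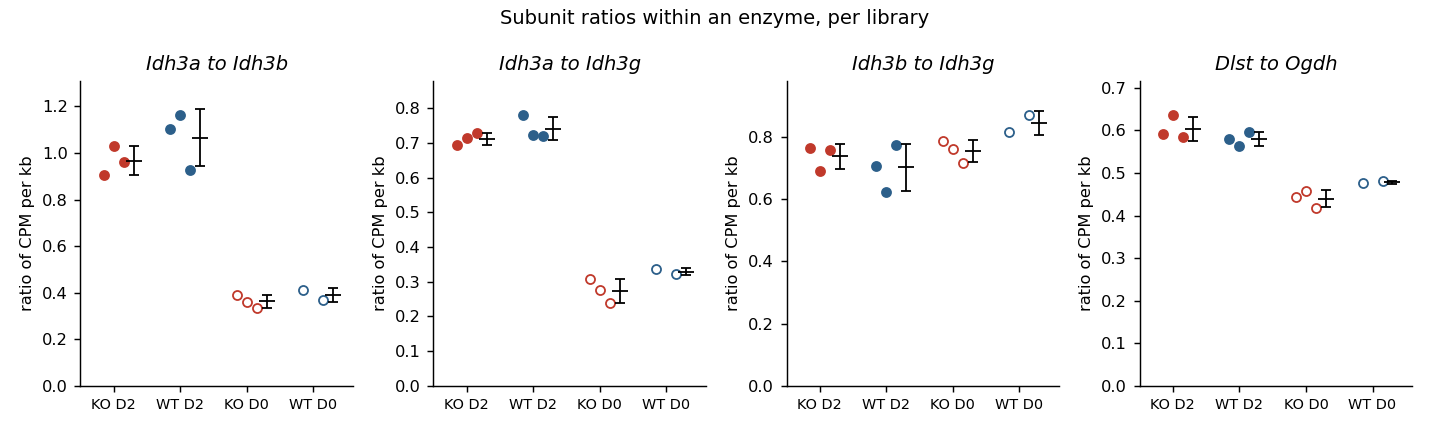
Ratios of CPM per kb (vertical axes, from 0) between subunits of 1 enzyme in each library, with the mean and SD of each group. Both ratios with Idh3a on top are higher in every D2 library than in any D0 library, Dlst to Ogdh likewise by less, and Idh3b to Idh3g overlaps between the days.

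Per kb of transcript, the order of the 9 levels differed between the days. The order within a group rests on the 1 transcript length taken for each gene. Mdh2 was the most abundant in each group, with a mean of 355 ± 12.3 CPM per kb in KO D2, 330.0 ± 17.2 in WT D2, 134 ± 15.5 in KO D0 and 129 ± 30.1 in WT D0 (SD over the 3 libraries of a group, or 2 in WT D0). Fh1 was the least abundant in each group, at 40.5 ± 3.42 in KO D2, 46.8 ± 3.59 in WT D2, 18.3 ± 1.31 in KO D0 and 16.3 ± 1.19 in WT D0. At D2 the order in both genotypes began with Mdh2, Cs, Ogdh and Idh3g, whose libraries did not overlap with their neighbours, and Idh3a, Idh3b and Suclg1 followed with libraries that overlapped from 1 gene to the next. At D0 the order in both genotypes was Mdh2, Ogdh, Idh3g, Idh3b, Cs, Suclg1, Dlst, Idh3a and Fh1. The libraries of Mdh2 overlapped with those of Ogdh, those of Ogdh with those of Idh3g, and those of Idh3b with those of Cs. Cs was thus the second at D2 and the fifth at D0. Idh3a stood at 88.7 ± 3.14 CPM per kb in KO D2 against 29.2 ± 0.634 in KO D0, and at 88.0 ± 4.59 in WT D2 against 32.0 ± 0.891 in WT D0, where it was the last but 1 in both genotypes.

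The second question was whether the cycle genes differed between the genotypes under the same title day. At D2, edgeR called 0 of 9 genes between KO and WT, 0 of 9 had an unadjusted p under 0.05, and DESeq2 also called 0 of 9. Over all genes tested, 1.61% were higher in KO, 14.5% lower and 16.1% called in either direction, and 25.8% had an unadjusted p under 0.05. The log2 fold changes of KO against WT ran from -0.21 for Fh1 to 0.16 for Suclg1, with 8 of 9 above 0 and a median of 0.07, beside 0.01 over all genes. The libraries did not overlap for 3 of 9 genes, Idh3g, Suclg1 and Mdh2, which were all higher in KO. That share is near the 33.8% of all genes whose libraries did not overlap (12.4% higher and 21.3% lower in KO). Suclg1 stood at 135 ± 7.16 CPM in KO D2 and 121 ± 5.61 CPM in WT D2 (SD, n = 3 each), with a log2 fold change of 0.16 (95% interval -0.06 to 0.38, edgeR adjusted p = 0.39). Fh1 was the only 1 of the 9 with a lower mean in KO, at 107 ± 9.02 CPM in KO D2 and 123 ± 9.47 CPM in WT D2, with a fold change of 0.865 (0.728 to 1.03, edgeR adjusted p = 0.29). For Cs the fold change of KO against WT was 1.03 (0.882 to 1.21), for Idh3a 1.01 (0.875 to 1.16), for Ogdh 1.03 (0.855 to 1.25) and for Mdh2 1.08 (0.884 to 1.31). The intervals of the 9 genes reach from a fold change of 0.728 (Fh1) to 1.32 (Idh3b), so differences within that range are not settled by these libraries.

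At D0, edgeR called 0 of 9 genes between KO and WT, 0 of 9 had an unadjusted p under 0.05, and DESeq2 called 0 of 9, beside 0.153% of all genes called in either direction by edgeR and 4.35% with an unadjusted p under 0.05. The log2 fold changes ran from -0.13 (Idh3a) to 0.16 (Fh1). The libraries did not overlap for 2 of 9 genes, Idh3a, lower in KO, and Fh1, higher in KO, beside 16.5% of all genes (10.6% higher and 5.91% lower in KO). The change of D2 against D0 itself was compared between the genotypes, and 0 of 9 genes passed the test or had an unadjusted p under 0.05 in edgeR, with 0 of 9 in DESeq2. Among all genes 0.124% had a higher and 5.72% a lower change in KO, 5.84% in either direction, and 17.7% had an unadjusted p under 0.05. Fh1 came nearest, with a difference of KO minus WT of -0.37 on the log2 scale (SE 0.17, edgeR adjusted p = 0.29), and for the other 8 the difference ran from -0.07 (Idh3g) to 0.17 (Idh3b). Fh1 lies on the same chromosome as Ptprc, whose CD45 alleles mark the genotypes, at a distance of 37.5 Mb.

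The content of G and C bases in a transcript moved with genotype at D2. Of 2862 genes with a segment of 100 bases at 80% GC or more, 33.3% were lower in KO at D2, against 10.1% of 9957 others. The median deviation of such genes from the remaining ones was -0.53 to -0.40 on the log2 scale in KO D2 libraries against -0.22 to 0.23 in WT D2 libraries, and 0.12 to 0.34 over the D0 libraries. None of the 9 cycle genes holds such a segment, and their richest segments run from 64.0% (Idh3g) to 79.0% (Idh3a). With a GC curve taken off each library, chosen after the data were examined, 2 of 9 genes were higher in KO at D2, Idh3a by 0.57 (edgeR adjusted p = 0.010) and Dlst by 0.35 (adjusted p = 0.049), the members with the highest GC segments, beside 5.67% of all genes higher with the curve. With that curve and the replicate block their values were 0.58 (adjusted p = 0.00088) and 0.35 (adjusted p = 0.0071), beside 12.9% of all genes higher. The change of Idh3a at D2 against D0 was then larger in KO by 0.79 (adjusted p = 0.0049, beside 7.96% of all genes with a larger change), or by 0.69 with the curve alone (adjusted p = 0.096). With the curve the rise of Idh3a at D2 was 2.27 in KO and 1.59 in WT on the log2 scale. The answer for Idh3a and Dlst between the genotypes therefore depends on whether GC content is corrected.

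Genes around the cycle were grouped by role. Of 10 tested genes for the other enzymes of the cycle, 7 were higher and 1 lower at D2 in KO, beside 27.0% and 34.5% of all genes. In WT 6 were higher and 0 lower, beside 27.5% and 26.0% of all genes. The medians of the 10 were 0.67 in KO and 0.62 in WT on the log2 scale. The figure of these genes labels this list as matrix enzymes, although succinate dehydrogenase lies in the inner membrane. The higher genes include 3 of the 4 subunits of succinate dehydrogenase, the step between Suclg1 and Fh1, namely Sdhb, Sdhc and Sdhd. Sdhb was higher by 1.01 in KO (edgeR adjusted p = 3.6e-06) and 1.03 in WT (adjusted p = 1.2e-05), Sdhc by 0.61 in KO and 0.69 in WT, and Sdhd by 0.77 in KO and 0.68 in WT. Sdha, the gene of the flavoprotein subunit, stood at 0.12 in KO (edgeR adjusted p = 0.34) and 0.09 in WT (adjusted p = 0.57). Mrps36, which encodes a small subunit of the 2-oxoglutarate dehydrogenase complex, was higher by 1.30 in KO and 1.29 in WT. The gene of this list that was lower was Idh2, which encodes the NADP-dependent mitochondrial isocitrate dehydrogenase beside the Idh3 enzyme. It stood at 3.07, 3.32 and 4.25 CPM in KO D2 libraries against 15.5, 19.5 and 25.5 CPM in KO D0 libraries, and at 8.46, 12.5 and 11.9 CPM in WT D2 libraries against 12.1 and 15.4 CPM in WT D0 libraries. Its log2 fold change was -2.50 in KO (SE 0.24, edgeR adjusted p = 1.8e-06) and -0.33 in WT (adjusted p = 0.29).

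Of 9 tested genes for reactions that feed or drain the cycle, 3 were higher and 2 lower at D2 in KO, beside 27.0% and 34.5% of all genes. In WT 2 were higher and 1 lower (3 and 2 without KO D0 replicate 1), beside 27.5% and 26.0% of all genes in the main fit. Aldh18a1, which starts proline synthesis from glutamate, was higher by 1.58 in KO and 1.70 in WT. Got2, the mitochondrial aspartate aminotransferase gene, was higher by 1.23 in KO and 1.39 in WT. Acly, whose product splits exported citrate in the cytosol, was higher by 0.52 in KO (edgeR adjusted p = 0.0027) and stood at 0.35 in WT (adjusted p = 0.051). Me2, the mitochondrial malic enzyme gene, fell by 1.38 in KO (adjusted p = 7.6e-07) and stood at -0.30 in WT (adjusted p = 0.075). Me2 passed the threshold in WT too with the filter at a mean of 5 CPM (-0.42, adjusted p = 0.0085) and without KO D0 replicate 1, KO D0 replicate 3, KO D2 replicate 3, WT D0 replicate 2 or WT D2 replicate 3 (-0.48 to -0.35). Glud1, the glutamate dehydrogenase gene, fell by 0.72 in KO, but stood at 0.065 there with the GC curve taken off. In WT Glud1 stood at -0.20 (edgeR adjusted p = 0.34). Pck2, the mitochondrial phosphoenolpyruvate carboxykinase gene, fell by 0.49 in WT, a call lost without WT D0 replicate 3 (-0.27) or WT D2 replicate 2 (-0.45). In KO Pck2 stood at -0.23 (edgeR adjusted p = 0.23), and passed there with the filter at a mean of 5 CPM (-0.36, adjusted p = 0.042). Its change did not differ between the genotypes by the test in the main fit (edgeR adjusted p = 0.68).

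Of 6 tested mitochondrial carrier genes, 2 were higher and 2 lower at D2 in KO, beside 27.0% and 34.5% of all genes. In WT 3 were higher and 0 lower, beside 27.5% and 26.0% of all genes. Slc25a22, a glutamate carrier gene, was higher by 2.55 in KO and 2.24 in WT. Slc25a13, an aspartate and glutamate carrier gene, was higher by 2.04 in KO and 2.23 in WT. Slc25a10, the dicarboxylate carrier gene, was higher in WT by 0.81, or 0.60 and not called without WT D0 replicate 2. In KO Slc25a10 stood at 0.27 (edgeR adjusted p = 0.17), and passed there without KO D0 replicate 3 (0.38) and with the GC curve (0.46). Its change did not differ between the genotypes by the test in the main fit (edgeR adjusted p = 0.28). Slc25a1, the citrate carrier gene, fell by 2.32 in KO and stood at -0.29 in WT (edgeR adjusted p = 0.51). Slc25a11, the 2-oxoglutarate and malate carrier gene, fell by 1.15 in KO and stood at -0.24 in WT (adjusted p = 0.10). Slc25a11 passed the threshold in WT too with the filter at a mean of 5 CPM (-0.37, adjusted p = 0.011) and without KO D0 replicate 1, KO D0 replicate 3 or WT D2 replicate 3 (-0.38 to -0.30). Of 4 tested cytosolic counterparts, 2 were higher and 2 lower in KO, and 2 were higher and 1 lower in WT, beside the same shares of all genes. Got1 was higher by 1.83 in KO and 1.89 in WT and Mdh1, the cytosolic partner of Mdh2, by 0.53 in KO and 0.49 in WT (0.40 and not called in WT without WT D0 replicate 2), while Idh1 fell by 2.29 in KO and fell by 2.83 in WT. Aco1 fell by 0.35 in KO (edgeR adjusted p = 0.046), a call lost with RLE scaling, in DESeq2, with only the compared groups (adjusted p = 0.084) and without KO D0 replicate 2 or 3, KO D2 replicate 1 or 2, or WT D2 replicate 2. With the GC curve Aco1 was called in the other direction in KO, higher by 0.43 (adjusted p = 0.019). In WT Aco1 stood at -0.34 (edgeR adjusted p = 0.081), close to its KO value. It passed the threshold in WT with the filter at a mean of 5 CPM (-0.46, adjusted p = 0.012). It did so too without KO D0 replicate 1 or KO D0 replicate 3 (-0.40 in each). Ogdhl, Slc25a21 and Me1 did not pass the filter on low counts.

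Between KO and WT at D2, 1 of the 10 other enzymes of the cycle was lower in KO (Idh2, -1.63, edgeR adjusted p = 0.00057). So were 1 of the 9 feeding and draining reactions (Me2, -1.18, adjusted p = 8.7e-05) and 2 of the 6 carriers (Slc25a1, -1.97, adjusted p = 0.0012, and Slc25a11, -0.89, adjusted p = 0.00018). Of the 4 cytosolic counterparts, 0 were lower. No gene of the 4 lists was higher. The 4 lower among the 29 genes tested are 13.8%, near the 14.5% of all genes lower in KO. With the replicate block, Glud1 (-0.43) and Slc25a10 (-0.50) were lower as well, beside 18.6% of all genes. Glud1 was lower also without WT D2 replicate 1 (-0.58), and Slc25a10 also with a mean of at least 5 CPM (-0.48) or only the compared groups (-0.47). With the GC curve Slc25a22 (0.75), Slc25a12 (0.65) and Aco1 (0.62) were higher in KO, beside 5.67% of all genes. At D0, edgeR called 0 genes of the 4 lists between KO and WT, beside 0.153% of all genes. Of the 29 genes, 2 had an unadjusted p under 0.05, both among the other enzymes of the cycle, beside 4.35% of all genes. With the replicate block Dld (-0.54, edgeR adjusted p = 0.048) was lower in KO at D0. Over all 13711 genes, 41 were higher and 160 lower in KO at D0 with that block.

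**Figure D4:**
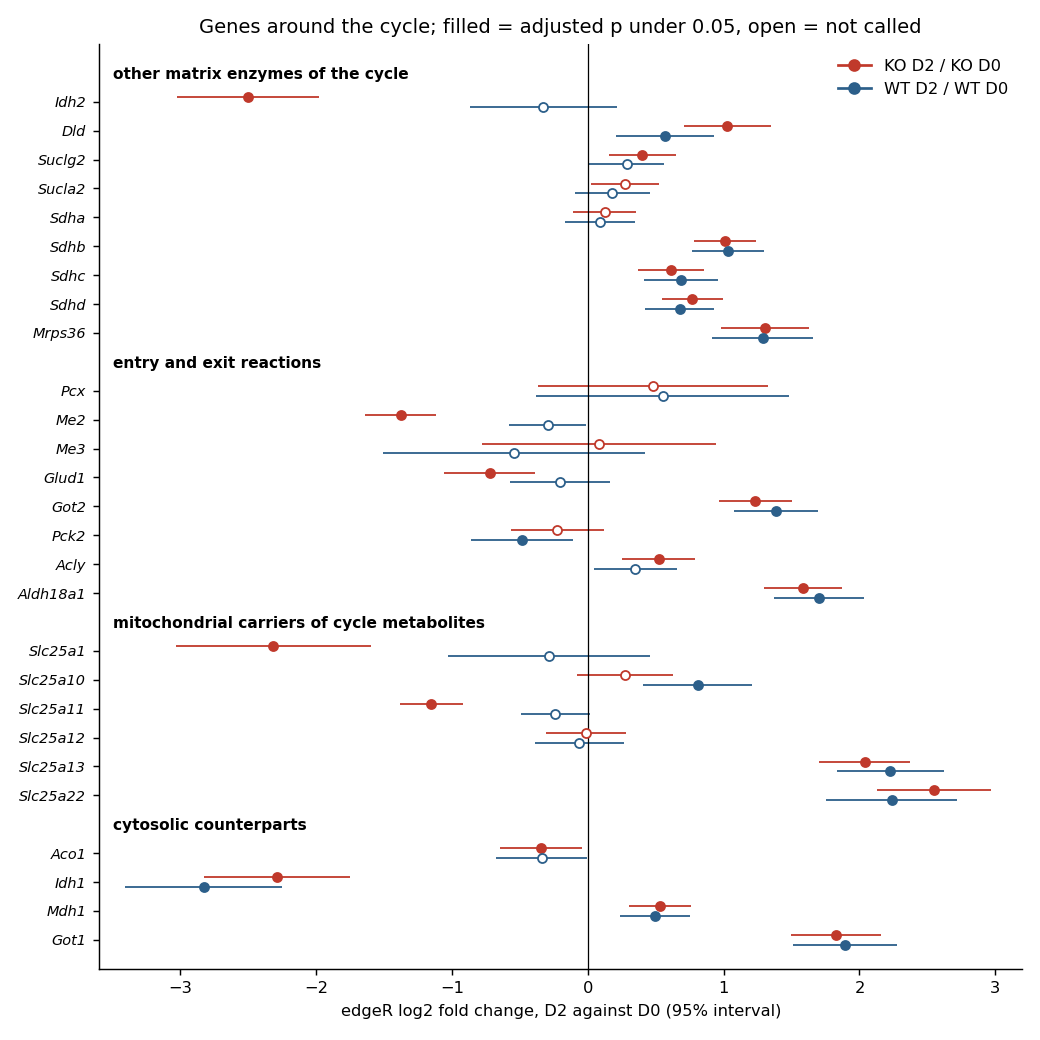
edgeR log2 fold changes of D2 against D0 (horizontal axis) with 95% intervals for genes around the cycle, KO above WT in each row and filled where the adjusted p was under 0.05. Most rows have KO and WT close together, while Idh2, Me2, Slc25a1 and Slc25a11 are filled and to the left in KO and open in WT. Glud1 is likewise filled and to the left in KO, by less. Aco1 is filled in KO and open in WT with nearly equal values.

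Across the 11 libraries, the level of each of the 9 genes was correlated with the mean of their standardised log2 CPM, which includes the gene itself. Pearson's r ran from 0.608 for Idh3b to 0.983 for Mdh2. Among the genes outside the 9 with the most alike pattern, of 9346 compared, were Wars (r = 0.997), Acot7 (0.994), Prkcsh (0.994) and Aifm1 (0.994). The points share the split between the days, so these values describe the same D2 against D0 difference and carry no test.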

How the data were processed

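RNA was measured in 11 libraries from sorted Ly49H+ NK cells. The authors deposited whole-number counts per Entrez gene ID, unnormalised by their values. Per the submitters' processing notes, the upstream tools were Trimmomatic 0.36, bcl2fastq 2.20.0.422, DESeq2 1.22.2 and Salmon 0.13.1, listed also as 13.1, and the build is mm10. Their roles are not given in the sources used here, so the counts may be rounded estimates, which can split reads between near copies of a gene. Per the labels' protocols, cDNA was amplified with a SMART-seq kit before library making, and amplification can favour or lose GC-rich transcripts.

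Symbols came from a RefSeq table of GRCm38.p6 (24387 of 24421 IDs matched). Tests used edgeR 4.0.16 (R 4.3.3) with its robust quasi-likelihood fit, TMM scaling and filterByExpr, all 11 libraries in 1 fit of 4 group means with 7 residual degrees of freedom, and p-values adjusted over 13711 genes. Standard errors and 95% intervals come from the same fit. CPM use TMM scaling, and CPM per kb divide by the longest protein-coding GENCODE transcript. Precision at this depth is set by the 2 or 3 libraries per group. p-values measure the spread between samples called individual mice. Shares of all genes called, or with libraries that did not overlap, were taken over the genes tested.

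Alternatives were RLE scaling, DESeq2 1.42.0, no filter, a mean of at least 5 CPM, only the compared groups, replicate blocks and leaving out each library. A GC curve (spline with 6 df on the richest 100-base segment, 12819 genes) and the subunit ratios were added after the data were examined. Same-numbered KO and WT libraries had correlated deviations at D2 (0.217, 0.198 and 0.114). Same-numbered KO D0 and WT D2 libraries did so too (0.218, 0.152 and 0.201), and KO D0 and KO D2 libraries less (0.0427, 0.0110 and 0.104). Whether the numbers mark pairs at D2 is therefore not settled. At D0 the genotypes share only 2 numbers (0.0275 and 0.410). Members and lists were chosen with earlier results of these data known. All members, Ldha, up to 3 called genes per list, direction and comparison with the smallest p, the most abundant marker of a list and the 5 genes most alike are the genes the rule names. The most abundant markers over all 11 libraries were Gzmb, Cd3d, Cd79a, Lyz2, S100a9, Zbtb46, Hbb-bs and Itga2b. Marker sums of the lists without a value in the report were at most 30.5 CPM for T cells, 9.15 for B cells, 16.0 for dendritic cells, 703 for erythroid cells and 7.56 for platelets. Platelet sums were 2.04 to 3.02 CPM in WT D2 against 6.99 to 7.56 in WT D0, and overlapped between the days in KO. Erythroid sums overlapped between the days in both genotypes. The mean of Hbb-bs was 48.1 CPM in KO D2 and 58.0 in WT D2, against 141 in KO D0 and 205 in WT D0. Some genes of the lists that the rule names, or that an alternative called, are not reported by name here or drawn, and the counts of the lists include them.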

Additional observations from a re-analysis of the deposited data

Results flagged for a closer look

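Among the 29 genes tested around the cycle, the change of D2 against D0 differed between KO and WT for 4 by the test of the difference itself. All 4 had a lower change in KO, beside 5.72% of all genes (5.84% called in either direction). None of the 9 cycle enzyme genes passed. For Idh2 the difference of KO minus WT was -2.17 on the log2 scale (SE 0.35, edgeR adjusted p = 0.0093), with -2.50 in KO and -0.33 in WT. For Me2 it was -1.08 (SE 0.18, edgeR adjusted p = 0.0093), with -1.38 in KO and -0.30 in WT. For Slc25a1 it was -2.03 (SE 0.48, edgeR adjusted p = 0.030), with -2.32 in KO and -0.29 in WT. For Slc25a11 it was -0.91 (SE 0.16, edgeR adjusted p = 0.011), with -1.15 in KO and -0.24 in WT. The richest 100-base segment is at 76.0% GC in Idh2, 77.0% in Me2, 82.0% in Slc25a1 and 75.0% in Slc25a11. With the replicate block these 4 also passed, and Dld (0.62, edgeR adjusted p = 0.013) and Slc25a10 (-0.69, adjusted p = 0.012) passed as well, beside 19.1% of all genes. With the GC curve taken off, the difference was -0.65 for Me2 (adjusted p = 0.073), -1.34 for Slc25a1 (adjusted p = 0.090) and -0.64 for Slc25a11 (adjusted p = 0.066), and Idh2 stayed past the threshold. Over all 13711 genes, 20 had a higher and 141 a lower change in KO with the curve, against 17 and 784 in the main fit. Without WT D0 replicate 2 none of the 4 passed, with adjusted p of 0.073 for Idh2, 0.076 for Me2, 0.17 for Slc25a1 and 0.074 for Slc25a11. Slc25a1 lost its call without any 1 of the libraries other than KO D0 replicate 1 and WT D2 replicate 1, and without the filter on low counts (adjusted p = 0.063).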

How the results depend on the processing

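The count of cycle genes called stayed at 0 of 9 for KO against WT at D2, at D0 and for the difference in every planned setting. With the GC curve it was 2 for KO against WT at D2, and with the replicate block and the GC curve 2 at D2 and 1 for the difference. Leaving out 1 library at a time gave 6 to 7 for KO D2 against KO D0 and 4 to 6 for WT D2 against WT D0. The replicate block, number within day, left 0 of 9 called between the genotypes at D2, at D0 and for the difference, and the block across days made 7 of 9 higher in KO and 8 of 9 in WT for D2 against D0, beside 28.5% and 29.6% of all genes. Over all genes RLE scaling moved the median for the difference to 0.06, against -0.04, and that of KO D2 against KO D0 to -0.09, against -0.20.

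Signs turned, and apart from Aco1 and Glud1, given in the report with 0.43 and 0.065 under the GC curve, all were values not called in either setting. For KO D0 against WT D0, Cs stood at -0.0093 with RLE, -0.0094 in DESeq2, -0.029 without a filter, -0.029 with only the compared groups, -0.040 with the GC curve, -0.013 with the block across days and -0.017 with block and curve. There Suclg1 stood at -0.0015 without a filter, -0.0011 with only the compared groups and -0.010 with the curve. Dlst stood at 0.084 with the block, 0.0053 with the block across days and 0.036 with block and curve, and Idh3b at 0.020 with the block. For WT D2 against WT D0, Idh3b stood at -0.041 without a filter, -0.10 with at least 5 CPM, -0.045 with only the compared groups and -0.024 with the curve, and for KO D2 against KO D0 Idh3g stood at -0.017 with the curve. For KO D2 against WT D2, Idh3a stood at -0.0012 without a filter. With the curve Cs stood at -0.031, Idh3g at -0.074 and Ogdh at -0.097, and with block and curve at -0.030, -0.073 and -0.099. For the difference, Idh3g stood at 0.031 and Ogdh at 0.064 with RLE and at 0.031 and 0.064 in DESeq2, and Cs at -0.013 with block and curve.

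Leaving out 1 library, the uncalled values that turned ranged as follows. For KO D0 against WT D0 these were Cs from -0.10 to 0.072, Dlst from -0.15 to 0.065, Idh3b from -0.15 to 0.071, Mdh2 from -0.19 to 0.30, Ogdh from -0.041 to 0.20 and Suclg1 from -0.077 to 0.10. For KO D2 against WT D2 they were Cs from -0.0065 to 0.11, Idh3a from -0.033 to 0.031 and Ogdh from -0.018 to 0.062, and for WT D2 against WT D0 Idh3b from -0.14 to 0.12. For the difference they were Cs from -0.035 to 0.14, Idh3g from -0.14 to 0.016, Mdh2 from -0.20 to 0.29 and Ogdh from -0.16 to 0.075. WT D0 holds 2 libraries, so without 1 of them its spread is taken from the other groups.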
